A study of Mus musculus with 25 samples.

Results

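Open chromatin 2 to 5 kb away from transcript starts was followed in mouse retinal progenitor cells, the dividing cells that give rise to every retinal neuron and to Müller glia. The counts were given in 200 bp windows, laid in 28488 runs of 50 windows, each run covering 10 kb around the start of 1 transcript. Windows were kept whose centre lay at least 2 kb from the centre of every run and whose mean level over the 12 libraries from E12.5 to P2 was at least 3 CPM (the count of a window over the total of its library, on the usual CPM scale). Adjacent ones were joined. This gave 1750 regions made of 3953 windows, out of 774731 windows at that distance and 1415323 distinct windows in all. Because the level over these libraries chose the regions, their mean level is given as a description and not tested.

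The retinas came from CD1 mice and were sorted by a GFP reporter: GFP+ cells are the progenitors and GFP- cells the post-mitotic retinal cells. The sources used here do not say which promoter drives GFP, whether a library pools animals, or whether the 2 libraries of a stage come from separate animals, so p-values measure the spread between libraries, which may be technical. Chromatin accessibility was measured by ATAC-seq, in which a transposase cuts open DNA, in GFP+ cells only: E10 (labelled embryonic day 10/11) gave 1 library. The later embryonic stages E12.5, E14, E16.5 and E18 gave 2 libraries each, as did the postnatal stages P0 and P2. RNA was sequenced from GFP+ and GFP- cells at E14, E18 and P2, with 2 libraries in each of the 6 groups.

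DNA that is wrapped tightly around nucleosomes is hard to cut, while promoters and enhancers in use are cut readily. Enhancers are stretches of DNA that bind transcription factors and act on a promoter from a distance, and they differ between cell types more than promoters do. Early retinal progenitors give rise to ganglion, horizontal, amacrine and cone cells, and late ones to rods, bipolar cells and Müller glia.

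Open windows thinned out steeply with distance. At 0 to 0.5 kb downstream of a start, 38.5% of windows reached 3 CPM, against 0.762% at 2 to 2.5 kb and 0.373% at 4.5 to 5 kb downstream. Upstream, the share was 0.642% at 2 to 2.5 kb and 0.369% at 4.5 to 5 kb. Of all windows at least 2 kb from a start 0.51% were open, and of nearer windows 11.8%.

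**Figure D1:**
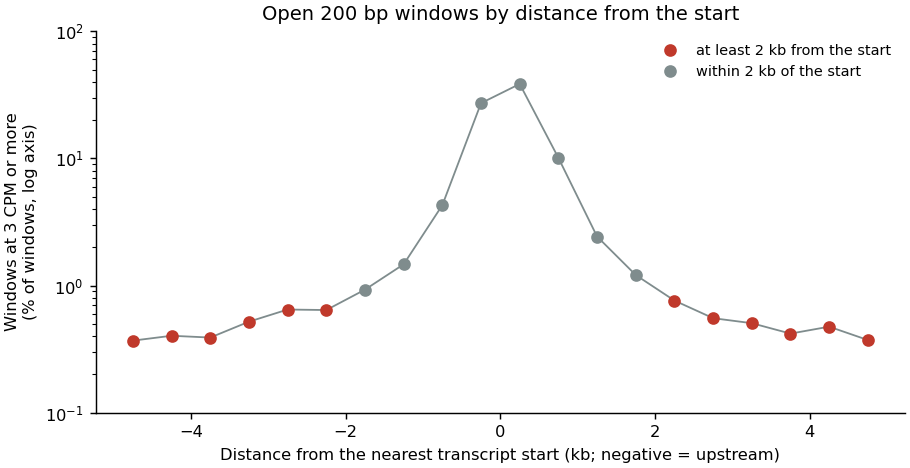
Share of 200 bp windows with a mean of at least 3 CPM over 12 libraries (percent, log axis) by distance from the nearest transcript start (kb, in bins of 0.5 kb). The share peaks at 38.5% just downstream of the start and lies between 0.369% and 0.762% beyond 2 kb.

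The regions were small: the median width was 298.5 bp and 783 of the 1750 were a single window. By the exons in the deposited gene table, 756 regions (43.2%) lay between genes, 692 (39.5%) in an intron and 302 (17.3%) touched an exon. They stood nearest to 1476 genes, of which 1253 had 1 region, 177 had 2 and 46 had 3 or more. Pax6, Ptch1, Kdm6b, Nr2f1 and Tnrc18 had 4 each. The start of the nearest transcript was itself below 1 CPM for 496 regions (28.3%) and at 3 CPM or more for 999 (57.1%). As a description, 954 regions (54.5%) stood above their own start. That count follows largely from the choice, since regions were kept at a mean of 3 CPM or more and starts at any level.

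The median region had 4.34 CPM. The highest was an exonic region of Rn45s, the ribosomal RNA precursor, with 115 CPM and a width of 3000 bp. Its sequence has many copies in the genome, so its level is uncertain. After it came regions near Marcks, Arrdc3, Gm2109, Adamts1 and Elovl6, and the widest besides Rn45s stood near Nr3c1, the glucocorticoid receptor, and Mir99b. The Marcks region, 2.3 kb upstream of a gene for a substrate of protein kinase C, had 31.3 and 35.9 CPM at P0, and 24.7 and 24 CPM at E12.5. At the threshold, the windows just inside it lay near Pla2g2c, Pcdh8 and Clptm1, at 3.00105, 3.00177 and 3.00285 CPM. Those just outside lay near S100a3, Ctrl and Kif27, at 2.99623, 2.99865 and 2.99997 CPM.

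The windows are placed on mm9, and no region sequence was read here. For 2 genes whose region and start moved apart, the 250 bases before the start are shown, from RefSeq (GRCm38.p6, on the strand of the gene, 5′ to 3′). Capitals mark CG dinucleotides, which are dense at promoters that stay open in many cell types. Gemin8 (a subunit of the SMN complex, which assembles spliceosomal particles) lies at chrX:166170204-166170453 on the plus strand, and Caap1 (caspase activity and apoptosis inhibitor 1) at chr4:94556797-94557046 on the minus strand.
Gemin8: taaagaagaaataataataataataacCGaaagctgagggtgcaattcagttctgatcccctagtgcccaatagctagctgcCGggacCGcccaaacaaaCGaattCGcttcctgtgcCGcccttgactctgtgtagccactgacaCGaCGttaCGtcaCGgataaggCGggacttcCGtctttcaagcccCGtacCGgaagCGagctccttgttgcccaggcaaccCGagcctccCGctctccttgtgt
Caap1: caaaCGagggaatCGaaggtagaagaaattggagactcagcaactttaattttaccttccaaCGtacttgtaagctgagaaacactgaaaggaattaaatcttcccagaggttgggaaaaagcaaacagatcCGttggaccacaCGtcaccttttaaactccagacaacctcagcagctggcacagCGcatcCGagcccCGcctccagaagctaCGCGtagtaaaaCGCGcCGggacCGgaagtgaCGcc
The Gemin8 promoter holds 17 CG and the Caap1 promoter 15, against a median of 6 over 27025 promoters, 1 a gene. Both starts were open throughout. The Gemin8 start averaged 18.6 CPM at P0 and 10 CPM at E12.5, while the region 2.5 kb downstream of it averaged 8.96 CPM at P0 and 0.1 CPM at E12.5. The Caap1 start averaged 10.4 CPM at P0 and 5.58 CPM at E12.5, while the region 2.7 kb upstream of it averaged 0.336 CPM at P0 and 7 CPM at E12.5.

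Libraries held between 11179168 and 94687050 counts. Over the regions, the 2 libraries of a stage correlated at r between 0.962 and 0.993, as a description. The P2 libraries stood apart: their counts differed from each other by 6.97 chi-square per degree of freedom, against 1.51 to 2.1 at the other 5 stages. Regions were 52.6 times as high as low windows at the same distance in P2 replicate 1 and 20.8 times in P2 replicate 2. This ratio also moved with stage, being 57.1 and 59.3 at P0, against 26.3 and 22.5 at E12.5. Its part in the changes below was not tested. In the RNA, all 13 progenitor markers averaged 1 FPKM or more in GFP+ cells at every stage (summed FPKM between 2450 and 4130). All 13 did so in GFP- cells too. Their GFP- sums were 699 to 2460 FPKM at E14, 1440 to 1620 FPKM at E18 and 1270 to 1770 FPKM at P2.

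The comparison of P0 with E12.5 asked how the regions change over the span in which progenitors pass from early to late cell fates. The 10 regions with the largest rises averaged at most 0.286 CPM at E12.5, while the 10 with the largest falls still averaged between 0.25 and 1.98 CPM at P0. Values are CPM per 200 bp, scaled by TMM, a method that sets library sizes by the bulk of all features. The Slc27a1 region, in an intron 4.1 kb downstream of the start of a fatty acid transporter gene (mm9, chr8:74096826-74097025), had 19.3 and 15.8 CPM at P0, and 0.226 and 0.187 CPM at E12.5. The Rnf220 region, in an intron of a ubiquitin ligase gene (chr4:117052466-117052865), had 14.5 and 13.3 CPM at P0, and 0.314 and 0.187 CPM at E12.5. The Tprn region, in an intron of the gene for taperin, a protein of hair cell stereocilia (chr2:25122718-25123185), had 12.7 and 12.1 CPM at P0, and 0.339 and 0.234 CPM at E12.5. In each of the 3, both P0 libraries stood above both E12.5 libraries, since a lack of overlap was a condition for naming these regions.

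The fitted log2 change of P0 over E12.5 was 6.4 ± 0.5 (SE, n = 2 each) for Slc27a1, 5.76 ± 0.56 for Rnf220 and 5.41 ± 0.43 for Tprn, with edgeR adjusted p-values of 5.45e-13, 1.51e-10 and 5.45e-13. The other 7 with the largest rises stood near Gemin8, Zmynd15, Tpd52, Lrrfip1, Kctd14, Mir9-1 and Stmnd1, with log2 changes of 5.42 to 6.51. Mir9-1 encodes the neural microRNA miR-9. Its region, 4.5 kb downstream, had 8.2 and 7.83 CPM at P0, and 0.176 and 0.187 CPM at E12.5. The size of these rises rests on few reads at E12.5: the Gemin8 region had 184 and 86 counts at P0, and 3 and 4 counts at E12.5.

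Among the regions that fell, the Caap1 region (chr4:94226087-94226286, between genes) had 0.575 and 0.0967 CPM at P0, and 7.83 and 6.17 CPM at E12.5. The Snx16 region, 3.1 kb upstream of a sorting nexin gene (chr3:10443130-10443329), had 0.627 and 0.387 CPM at P0, and 7.03 and 6.3 CPM at E12.5. The Mir125b-2 region, 2.1 kb upstream of a gene for the microRNA miR-125b (chr16:77644318-77644517), had 1.46 and 2.32 CPM at P0, and 11.7 and 11.5 CPM at E12.5. As the same condition required, no P0 library reached an E12.5 library in these 3. Their log2 changes were -4.11 ± 0.5, -3.62 ± 0.48 and -2.71 ± 0.35 (SE, n = 2 each), with edgeR adjusted p-values of 5.2e-08, 4.55e-07 and 3.18e-07. The other 7 stood near Slc13a1, Fez1, Carnmt1, Marcksl1-ps4, Irs4, Hdac11 and Col4a2, at log2 changes of -4.41 to -2.02. Of these 10 falling regions, 8 were highest at E14, before they fell.

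**Figure D2:**
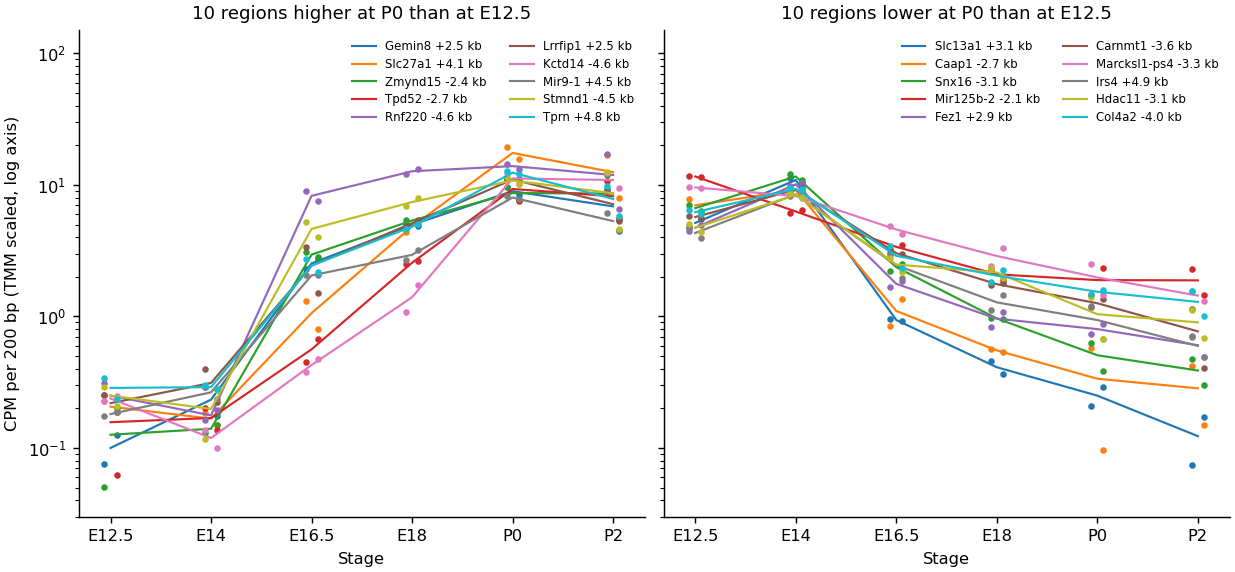
CPM per 200 bp (TMM scaled, log axis) at 6 stages for the 10 regions with the largest rise (left) and the 10 with the largest fall (right) at P0 over E12.5. Points are the 2 libraries of a stage and lines join their means: the means of the rising regions stay at or below 0.312 CPM at E12.5 and E14, and 8 of the falling regions are highest at E14.

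Across the set, 551 of the 1750 regions were higher at P0 and 38 were lower (edgeR quasi-likelihood test, Benjamini-Hochberg adjusted over 513131 features). Of all features tested, 2.41% were called higher and 2.31% lower, 4.72% in either direction. The median log2 change was 0.86 over the regions and -0.121 over all features. Open regions within 2 kb of a start had 1677 of 13905 called higher and 159 lower, with a median of 0.712.

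The split between higher and lower depends on the scaling. With plain column totals it was 695 higher and 153 lower, while all features had a median of -0.52. With libraries scaled to the summed regions it was 412 higher and 349 lower, with a median of 0.049 over the regions. That sum includes Rn45s, with 86911 of 624811 and 74914 of 471600 counts at E12.5. At P0 Rn45s held 44070 of 531134 and 22204 of 259662 counts. Its weight in this scaling was not tested. Both of these scalings moved the changes of the regions down by similar amounts, from a median of 0.86 to 0.458 and 0.049. A region that fell could therefore not turn, and one with a large rise hardly could. All 551 higher and all 38 lower regions kept their sign under both. Of them, 399 of the 551 and all 38 stayed called when scaled to the summed regions. The way regions were chosen can also weigh on the split, which was not tested. Each stage gives 2 of the 12 libraries in the mean, so windows open at 1 stage can be missed. Windows outside the regions with at least 3 CPM numbered 668 at E12.5, 849 at E14 and 461 at E16.5. They numbered 361 at E18, 773 at P0 and 1605 at P2. In sorted bulk libraries, a smaller share of cells with an open region and a less open region in each cell cannot be told apart. Because all 6 stages share 1 estimate of the spread, single libraries weigh on these counts. They were 186 higher and 6 lower without P0 replicate 1, and 426 and 22 without P0 replicate 2. They were 261 and 17 without E12.5 replicate 1, and 252 and 22 without E12.5 replicate 2. Without P2 replicate 1 they were 1217 and 93, and without P2 replicate 2 they were 1218 and 94.

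Calls were then counted for each step between neighbouring stages, whose libraries differ in depth. Between E12.5 and E14, 337 regions were higher at E14 and 12 were lower (2.97% and 4.01% of all features, 6.98% in either direction). Between E14 and E16.5, 188 were higher at E16.5 and 53 lower, which is 10.7% and 3.03% of the regions, against 1.18% and 1.26% of all features. Over the same step, 152 (1.09%) of the open regions near starts were higher and 80 (0.575%) lower. The 2 sets differ in counts a region: 75467 windows made the 13905 regions near starts, and 3953 made the 1750. How this weighs on the shares called was not tested. Among the 1750, those that led the rise at E16.5 stood near Rnf220, Rbp7, Stmnd1 and Zmynd15, and those that led the fall near Slc13a1, Caap1 and Fez1.

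The later steps held fewer calls, and the P0 libraries are the shallowest of the 12. At E18 against E16.5, 8 regions were higher and 5 lower (0.0263% and 0.0563% of all features, 0.0826% in either direction, with 190 regions at an unadjusted p under 0.05). At P0 against E18, 11 were higher and none lower (0.055% and 0.00409% of all features, 0.059% in either direction, with 159 at an unadjusted p under 0.05). The 11 included regions near Kctd14, Tpd52, Slc27a1, Kcnn4, Mir9-1 and Tprn. The Kctd14 region had 0.379 and 0.475 CPM at E16.5, 1.08 and 1.72 CPM at E18, and 12.3 and 10.1 CPM at P0. At P2 against P0, 3 were lower and none higher (0.00643% and 0.00078% of all features, 0.00721% in either direction, with 274 at an unadjusted p under 0.05), near Krt90 and Abcd4. The median log2 change over the regions was -0.35 at P2 against P0, and 0.068 at E16.5 against E14. At least 1 step was called for 555 regions, against 1615 without P2 replicate 1, 1413 without P2 replicate 2, and 199 to 313 without an E12.5 or E14 library.

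The 5 regions lower at E18 stood near Clrn1, Slc4a8 (2 regions), Sh3gl2 and Cep85l, and are named after their values were seen. The Slc4a8 region 3.7 kb upstream of a start of this bicarbonate transporter gene had 2.48 and 1.9 CPM at E12.5, 2 and 2.16 CPM at E14, 9.21 and 6.02 CPM at E16.5, 1.76 and 2.44 CPM at E18, 2.25 and 1.06 CPM at P0, and 8.72 and 2.93 CPM at P2. Both E16.5 libraries and P2 replicate 1 stood above the rest. The Clrn1 region 2.1 kb downstream of the start of a gene for a protein of photoreceptors and hair cells had 1.22 and 1.13 CPM at E18, and 5.28 and 4.92 CPM at E16.5. Its log2 change at E18 was -2.13 ± 0.29.

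**Figure D3:**
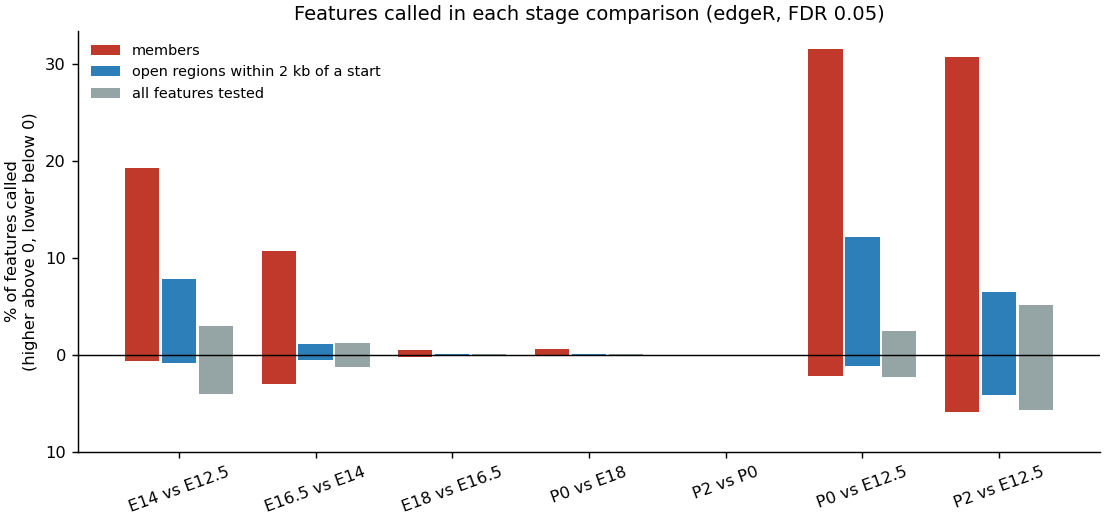
Percent of regions at least 2 kb from a start (members, red), of open regions within 2 kb (blue) and of all features tested (grey) called higher (above 0) or lower (below 0) in each stage comparison by edgeR at an adjusted p under 0.05. At E16.5 against E14 the members' bars reach 10.7% and 3.03%, and the near-start bars 1.09% and 0.575%. The sets differ in counts a feature, and how this weighs on the shares was not tested.

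At P2 against E12.5, 538 regions were higher and 104 lower (5.09% and 5.7% of all features), with a median of 0.539. This comparison turns on the P2 library used. Without P2 replicate 2 the counts were 1287 higher and 109 lower, and without P2 replicate 1 they were 316 higher and 446 lower. A slope over the 6 stages was upward for 397 regions and downward for 126 (4.86% and 5.8% of all features).

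Pax6, a paired-box factor needed for eye formation and for the multipotency of retinal progenitors, had 4 regions. The region in an intron 4.6 kb downstream of a Pax6 start (chr2:105526820-105527619) had 1.6 and 1.15 CPM at E12.5, 2.35 and 2.12 CPM at E14, 9.06 and 8.79 CPM at E16.5, 12.9 and 11.9 CPM at E18, 15.4 and 13.7 CPM at P0, and 13.7 and 5.63 CPM at P2. The region 3.7 kb upstream of another Pax6 start, in an intron of the antisense gene Pax6os1 (chr2:105505253-105505499), had 5.05 and 4.46 CPM at E12.5, 11.1 and 12.4 CPM at E14, 4.18 and 4.07 CPM at E16.5, 3.57 and 2.99 CPM at E18, 2.3 and 1.06 CPM at P0, and 1.36 and 0.749 CPM at P2. The downstream region passed the upstream region between E14 and E16.5, and neither overlapped between P0 and E12.5.

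The downstream Pax6 region rose at P0 over E12.5 by a log2 change of 3.39 ± 0.44 (SE, n = 2 each; edgeR adjusted p = 3e-07), and the upstream region fell, with -1.36 ± 0.41 (adjusted p = 0.0369). Both stayed called under the 3 scalings. The remaining 2 Pax6 regions, each 2.1 kb upstream of a start, had log2 changes of 0.46 ± 0.35 and 0.59 ± 0.34 and did not pass the test. The start nearest the upstream region had 5.65 CPM at P0 and 5.36 CPM at E12.5, and that nearest the downstream region had 5.33 CPM at P0 and 4.71 CPM at E12.5. Of the 223 genes with 2 or more regions, Pax6 and Irs4 had regions called in both directions. For Irs4, an adaptor of insulin signalling, the region 4.6 kb upstream had 7.02 and 5.17 CPM at P0, and 0.402 and 0.452 CPM at E12.5. The Irs4 region 4.9 kb downstream had 1.2 and 0.677 CPM at P0, and 4.69 and 3.93 CPM at E12.5.

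**Figure D4:**
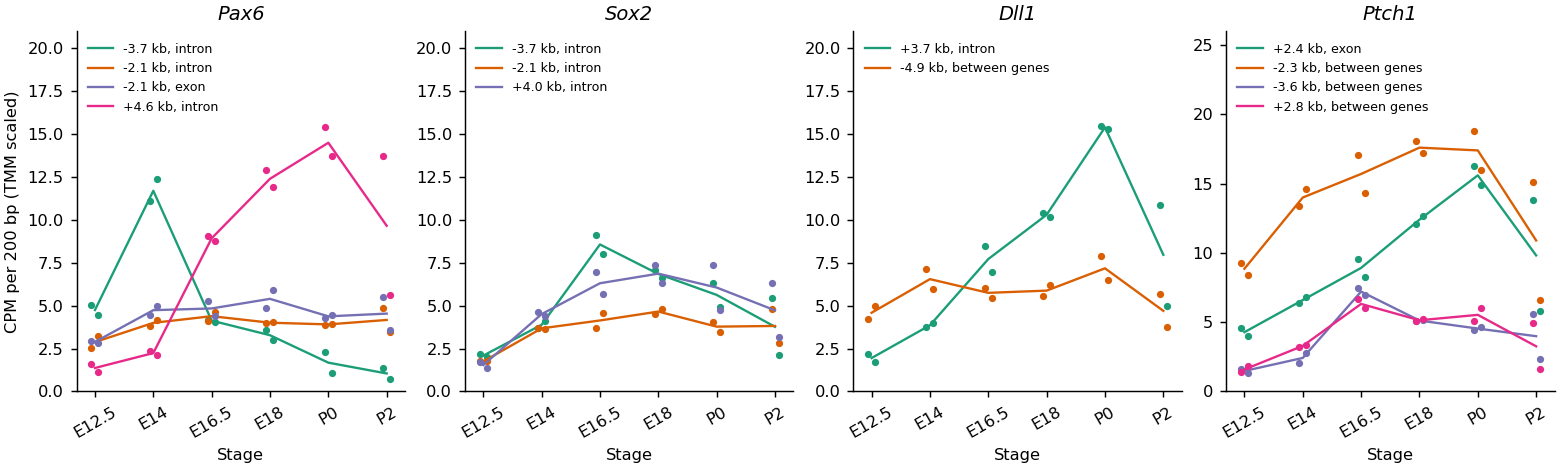
CPM per 200 bp (TMM scaled) at 6 stages for each region of Pax6, Sox2, Dll1 and Ptch1, labelled by its distance from the nearest transcript start and its place. Points are libraries and lines join stage means: the Pax6 region at +4.6 kb climbs to 15.4 and 13.7 CPM at P0 while that at -3.7 kb peaks at 11.1 and 12.4 CPM at E14.

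Among 16 progenitor core factors, 13 had at least 1 region, 25 regions in all. Of these 8 were higher at P0 and 1 lower, with a median log2 change of 1. That is close to the whole set of 1750 regions, with 31.5% higher, 2.17% lower and a median of 0.86. Of all features tested, 2.41% were higher and 2.31% lower. The counts of the lists that follow stand beside the same shares. Whether any list differs from the whole set was not tested. Scaled to the summed regions, 7 were higher and 1 lower. Sox2, a factor that maintains neural progenitors, had 3 regions inside introns of the overlapping Sox2ot. The Sox2 region at 4 kb downstream had 7.39 and 4.74 CPM at P0, and 1.72 and 1.36 CPM at E12.5 (log2 2.03 ± 0.38, adjusted p = 0.000339). The Sox2 region at 3.7 kb upstream was highest at E16.5, with 9.15 and 7.99 CPM, and had 6.32 and 4.93 CPM at P0, and 2.18 and 2 CPM at E12.5 (log2 1.47 ± 0.4). It was not called when scaled to the summed regions. Rax, an eye field homeobox gene, had a region 2.2 kb upstream with 5.82 and 5.85 CPM at P0, and 1.86 and 1.39 CPM at E12.5. The Lhx2 region 3.1 kb upstream had 9.09 and 7.22 CPM at P0, and 3.6 and 3.08 CPM at E12.5. The Six6 region 3.3 kb upstream, at 2.77 and 2.51 CPM at P0, and 2.01 and 2.03 CPM at E12.5, did not pass the test.

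The 3 regions of Abcd4, a transporter gene, stand on raised surroundings. Over the whole 10 kb run around Abcd4, the median window had 3.6 and 3.62 CPM at P0, and 0.57 and 0.644 CPM at E12.5 by column totals. The median of all runs was 0.0883 and 0.0895 CPM at P0, and 0.157 and 0.184 CPM at E12.5. The Abcd4 run lay above the median of all runs in each of the 13 libraries. Abcd4 is named after its values were seen.

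The neurogenic and Notch list had 24 regions near 15 of its 24 genes, and 15 were higher at P0 and none lower, with a median log2 change of 1.47. Scaled to the summed regions, 12 were higher and 1 lower. Notch signalling passes between neighbouring progenitors, with Delta ligands on 1 cell binding Notch receptors on the next, and the Hes repressors are its targets. Among the ligands, the Dll1 region in an intron 3.7 kb downstream (chr17:15508787-15509386) had 15.5 and 15.3 CPM at P0, and 2.17 and 1.73 CPM at E12.5 (log2 2.97 ± 0.39, adjusted p = 3.34e-07). The Dll1 region 4.9 kb upstream had 7.89 and 6.48 CPM at P0, and 4.22 and 4.96 CPM at E12.5, and did not pass the test. The Dll4 region 3.1 kb upstream had 14 and 13.3 CPM at P0, and 2.65 and 1.8 CPM at E12.5 (log2 2.6 ± 0.37).

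Among the receptors and their modifiers, the Notch1 region in an intron 2.7 kb downstream, 1495 bp wide, had 16.1 and 13.8 CPM at P0, and 4.51 and 4.47 CPM at E12.5. Lfng encodes a glycosyltransferase that modifies Notch, and its region 2.3 kb downstream had 6.63 and 5.51 CPM at P0, and 0.728 and 1.03 CPM at E12.5 (log2 2.84 ± 0.39, adjusted p = 1.17e-06). Of the targets, the Hes5 region 2.4 kb upstream had 10.5 and 9.09 CPM at P0, and 3.58 and 3.35 CPM at E12.5 (adjusted p = 0.0115). The 3 Hes1 regions had log2 changes of 0.81 to 1.11 and did not pass the test. The Insm1 region 4.5 kb upstream of this zinc finger gene of newborn neurons had 10.7 and 10.1 CPM at P0, and 1.47 and 1.8 CPM at E12.5.

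The late progenitor and Müller glia list had 23 regions near 15 of its 24 genes, with 13 higher and none lower at P0 and a median log2 change of 1.31. Scaled to the summed regions, 10 were higher and 1 lower. Car2, a carbonic anhydrase of Müller glia, had an intronic region with 7.47 and 7.35 CPM at P0, and 1.26 and 1.11 CPM at E12.5 (log2 2.64 ± 0.39, adjusted p = 4.18e-06). The Id2 region 4.8 kb upstream of a gene for an inhibitor of bHLH factors had 6.55 and 7.06 CPM at P0, and 1.77 and 1.67 CPM at E12.5. The Vim region, in an intron of the vimentin gene, had 6.58 and 4.16 CPM at P0, and 1.41 and 1.34 CPM at E12.5. The Zfp36l1 regions at 2.5 kb upstream and 3.9 kb downstream rose by log2 changes of 1.73 ± 0.37 and 1.66 ± 0.38. The Sox9 region, in an exon, had 3.92 and 3.58 CPM at P0, and 2.96 and 2.37 CPM at E12.5, and the Nfia region had 8.8 and 9.28 CPM at P0, and 4.77 and 5.7 CPM at E12.5. Neither Sox9 nor Nfia passed the test.

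Of 16 early progenitor genes, 5 had a region, 7 regions in all. Of these 3 were higher at P0 and none lower: the Zic5 region and both Onecut2 regions, with 2 higher and 1 lower when scaled to the summed regions. The upstream Sfrp2 region, near a secreted Wnt modulator of early progenitors, had 4.96 and 4.93 CPM at P0, and 5.22 and 4.55 CPM at E12.5. It was not called, and was called lower when scaled to the summed regions. No region lay near Fgf15, Lin28b or Hmga2.

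The horizontal and amacrine list had 15 regions, 7 higher and 1 lower at P0. The lower one was the upstream Pax6 region. Scaled to the summed regions, 5 were higher and 1 lower. The Bhlhe22 region 4.3 kb downstream of a gene for a bHLH factor of amacrine and bipolar cells had 15.3 and 13.7 CPM at P0, and 0.535 and 0.655 CPM at E12.5 (log2 4.62 ± 0.5, adjusted p = 2.5e-09). Among 5 photoreceptor and bipolar regions, 2 were higher and 1 lower, and 1 was higher and 1 lower when scaled to the summed regions. The Nrl region, in an intron of the gene for the rod-determining factor, had 6.24 and 5.9 CPM at P0, and 2.21 and 2.06 CPM at E12.5. The Rxrg region, in an intron of a retinoid receptor gene expressed in cones, had 1.46 and 1.26 CPM at P0, and 6 and 4.89 CPM at E12.5 (log2 -1.98 ± 0.41, adjusted p = 0.00124). The ganglion cell list had 2 regions, both near Ebf3, and neither was called.

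The cell cycle list had 12 regions near 8 genes, with 6 higher and none lower at P0, and 3 higher and 1 lower when scaled to the summed regions. The E2f1 region, 4.6 kb upstream of the gene for an S-phase transcription factor, had 10.7 and 11.5 CPM at P0, and 0.69 and 0.468 CPM at E12.5 (log2 4.22 ± 0.44, adjusted p = 1.08e-09). The Ccnd1 region at 2.2 kb downstream rose by a log2 change of 1.33 ± 0.35, and the Ccnd1 regions at 2.3 and 3.4 kb upstream, with 0.59 ± 0.34 and 1.07 ± 0.37, did not pass. The chromatin architecture list had 2 regions, both near the cohesin loader gene Nipbl, and neither was called. When scaled to the summed regions both were lower. Of 38 retinal genes looked up whatever their values, 19 had a region, and those without included Atoh7, Neurog2, Otx2, Crx, Isl1 and Pou4f2.

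Each region was then set against the central 400 bp of its nearest run, that is, its own start. Relative to its start, 488 regions were higher and 198 lower at P0 over E12.5 (limma, adjusted over 24661 features). Of all features fitted, 11.4% were higher and 14.9% lower. The median difference was 0.294 over the regions and -0.171 over all features fitted. With the start below 1 CPM, 205 of 496 regions were higher and 10 lower, and with the start at 3 CPM or more 199 of 999 were higher and 162 lower. The median differences were 1.22 and 0.02, though the regions' own median log2 changes were 0.83 and 0.87. Starts below 1 CPM lie near the background. By column totals, the median window of all runs had 0.0883 and 0.0895 CPM at P0, and 0.157 and 0.184 CPM at E12.5. How this weighs on the counts was not tested. The 5 largest relative rises stood near Zmynd15, Rnf220, Mir7052, Adgrg1 and Kctd14. Their starts were low, averaging 0.975, 0.221, 0.17, 1.45 and 0.0867 CPM over the 12 libraries.

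The Rnf220 start nearest its region stayed closed, with 0.164 CPM at P0 and 0.227 CPM at E12.5, while the region rose. The region lies 4.6 kb upstream of that start but in an intron of Rnf220. The gene thus reaches further upstream, and this start is not its only one. The difference in log2 change was 6.11 (adjusted p = 7.81e-07). The largest relative falls stood near Caap1, Snx16, Col4a2, Carnmt1 and Tcp11. The Carnmt1 start averaged 29.3 CPM at P0 and 16.4 CPM at E12.5, while its region, 3.6 kb upstream, averaged 1.26 CPM at P0 and 5.7 CPM at E12.5. The region and the start moved in opposite directions, with a difference of -3 (adjusted p = 2.14e-07).

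**Figure D5:**
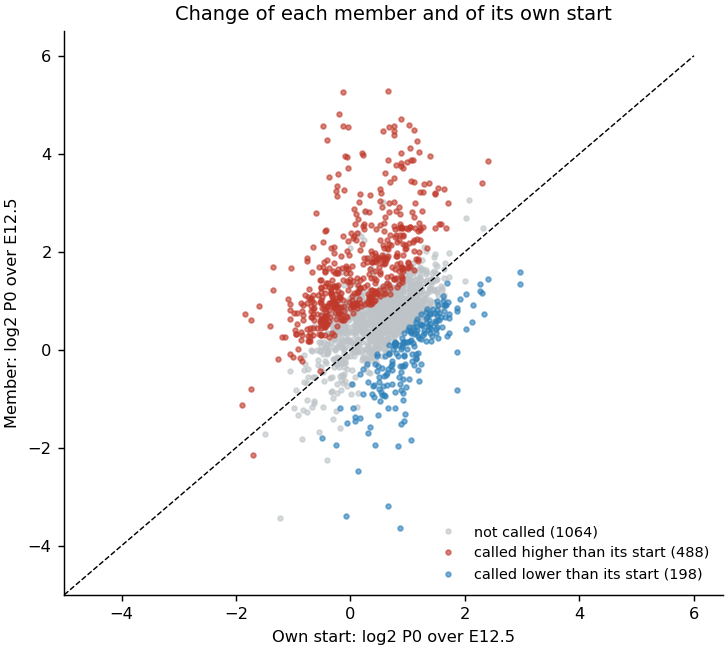
Log2 of P0 over E12.5 (mean CPM plus 0.25) for each of the 1750 regions against that of its own start, with the dashed line marking equal change. Regions called higher than their start (488, red) lie above the line and those called lower (198, blue) below it. The grey points were not called.

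RNA gave a readout that the choice of regions did not use. Of the 1476 nearest genes, 1356 were matched in the RNA table and 1079 passed the filter on low values. At P2 over E14 in GFP+ cells, 31 of these 1079 genes were higher and 5 lower (limma on log2(FPKM + 1)). Of all 14276 genes tested, 0.932% were higher and 0.217% lower. Genes nearest a region that was higher at P0 had 24 of 378 higher and 2 lower, with a median log2 change of 0.282, and 68.8% of them were above 0. Over all genes the median was 0 and 50.1% were above 0. Genes nearest a region that was lower at P0 had 21 tested, with 4 at an unadjusted p under 0.05, none called by limma, and a median of -0.43.

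Tprn RNA had 35 and 32.7 FPKM in P2 GFP+ cells, and 5.63 and 3.9 FPKM in E14 GFP+ cells (log2 2.61 ± 0.2, adjusted p = 0.00204). Slc27a1 RNA had 45.8 and 36.8 FPKM in P2 GFP+ cells, and 5.25 and 9.07 FPKM in E14 GFP+ cells (log2 2.41 ± 0.29, adjusted p = 0.00978). Lrrfip1 RNA had 60.9 and 69.4 FPKM in P2 GFP+ cells, and 18.9 and 13 FPKM in E14 GFP+ cells. Of the 10 genes with the largest rises of a region, these 3 had RNA called higher. RNA of Rnf220, at 52.2 and 60.1 FPKM in P2 GFP+ cells, and 56.3 and 53.3 FPKM in E14 GFP+ cells, did not pass the test (log2 0.03 ± 0.15, adjusted p = 0.969 by limma). RNA of Gemin8, Zmynd15 and Tpd52 did not pass either, at adjusted p-values of 0.37, 0.0791 and 0.0733, and Kctd14, Stmnd1 and Mir9-1 were not tested. Car2 RNA had 173 and 136 FPKM in P2 GFP+ cells, and 20.3 and 2.35 FPKM in E14 GFP+ cells, so its E14 libraries differed widely. Caap1 RNA had 11.8 and 11.7 FPKM in P2 GFP+ cells, and 15.8 and 16 FPKM in E14 GFP+ cells, and Pax6 RNA had 151 and 189 FPKM in P2 GFP+ cells, and 338 and 388 FPKM in E14 GFP+ cells. Neither passed the test, at adjusted p-values of 0.394 and 0.062.

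Markers of other cells moved along this comparison. Photoreceptor markers summed to 130 to 237 FPKM in P2 GFP+ cells, against 2.39 to 28.9 FPKM in E14 GFP+ cells, with 4 of 5 markers at 1 FPKM or more at P2 and 1 of 5 at E14, where Rcvrn was at 0. Lens markers summed to 1.32 to 2.39 FPKM in P2 GFP+ cells, against 0.117 to 107 FPKM in E14 GFP+ cells, with 0 of 6 markers at 1 FPKM or more at P2 and 4 of 6 at E14. Cryga was at 0 at P2. Endothelial markers summed to 231 to 244 FPKM in P2 GFP+ cells, against 23.4 to 71.9 FPKM in E14 GFP+ cells, with 2 of 5 markers at 1 FPKM or more in both. Ganglion cell markers summed to 9.15 to 14.7 FPKM in P2 GFP+ cells, against 36.8 to 86.2 FPKM in E14 GFP+ cells. Erythroid markers summed to 0.52 to 0.801 FPKM at P2, against 4.82 to 40.3 FPKM at E14. Sums of amacrine and pigment epithelium markers overlapped between the 2 stages. The part of these markers in the RNA changes was not tested. Nrl RNA, at 51.3 and 21.7 FPKM in P2 GFP+ cells and 1.37 and 0 FPKM in E14 GFP+ cells, is among these markers. At E18, 12 of the 1079 genes were higher in GFP+ cells than in GFP- cells and 34 lower (1.13% and 2.49% of all genes). Leaving out any 1 of the 4 libraries of that comparison left 0 higher and 1 lower, by limma. At P2 over E14, the counts were 69 higher and 25 lower without E14 GFP+ replicate 1, and 11 and 1 without E14 GFP+ replicate 2. They were 5 and 0 without P2 GFP+ replicate 1, and 8 and 0 without P2 GFP+ replicate 2.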

How the data were processed

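Accessibility values were raw read counts in 200 bp windows, deposited by the authors in 1 table for 13 ATAC-seq libraries on mm9. RNA values were deposited as FPKM per gene for 12 libraries, a unit read from the values. Tools named in the submitters' processing notes, with no role stated, are bedtools 2.26.0, featureCounts 1.5.3, SAMtools 1.5, Picard 2.10.7, HISAT2 and Bowtie2. The notes name 2 builds, mm10 and mm9.

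Member regions, open regions nearer to starts and all other single windows formed 1 table. It was tested with edgeR 4.0.16 (glmQLFit with legacy=FALSE, TMM, filterByExpr), in 6 stages of 2 libraries. The difference from the own start was tested with limma 3.58.1 on log2 CPM with a prior count of 2, precision weights and a mean count of at least 30, a change from the planned design. RNA was tested with limma on log2(FPKM + 1), genes at 1 FPKM or more in 2 libraries, so changes of low genes are understated. DESeq2 1.42.0 was an alternative. The tests were checked on simulated data. P-values were adjusted by Benjamini-Hochberg over all features, threshold 0.05. The SE of an ATAC-seq change comes from the edgeR fit and that of an RNA change from limma, so both include the spread between libraries. The limit given for the E10 library covers counting error only. Named regions were the 10 highest and 10 lowest log2 changes among called regions with separate replicates and 4 CPM in the higher stage, 1 a gene, predicted genes left out, plus the highest, widest and threshold regions, up to 4 a list, those of 38 anchor genes, and the 5 largest each way relative to the start. Regions that led single steps, genes with 4 regions and those called in both directions were named after their values were seen. Members and lists were chosen with earlier results of these data known. Windows on unplaced sequence were left out. Some results of the lists and anchor genes are not reported here.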

Additional observations from a re-analysis of the deposited data

Results flagged for a closer look

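The E10 library entered no comparison of the main analysis, since it is 1 library. Its 12689876 counts put a count of 0 at no more than 0.236 CPM, and the median region had 2.36 CPM by column totals, above that limit. Of the 1750 regions, 568 (32.5%) reached 3 CPM at E10, against 1105 (63.1%) at E12.5, and 181 stood below 1 CPM at E10, against 62 at E12.5. Signal over background was also lower in the E10 library: regions were 7.19 times as high as low windows at the same distance, against 26.3 and 22.5 times at E12.5, and open regions near starts held 24.2% of its counts, against 41.7% and 40.4% at E12.5. Its part in the lower share was not tested. The E10 library also held no counts on unplaced sequence, as did P2 replicate 1.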

How the results depend on the processing

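Counts of called regions moved by over 1.5 times under many settings. The 551 regions called higher and 38 called lower at P0 kept their sign under the 3 scalings. The scalings other than TMM moved all changes down by similar amounts, so the 38 could not have turned. Regions that were not called could turn when scaled to the summed regions, and 5 of those named then passed the threshold as lower: the upstream Sfrp2 region at -0.80, Mir99b at -0.63, Kdm6b at 4.4 kb upstream at -0.49, Marcks at -0.34 and Sh3gl2 at -0.68. Named regions lost their call in 18 cases with no filter on low counts, 7 scaled to the summed regions, 7 with open features alone in the fit, 3 with a robust prior and 1 with the replicate block. The settings of open features alone and of a robust prior were chosen after seeing the data. The cause was not tested. For P0 over E12.5, the count lower was 153 with column totals, 349 scaled to the summed regions and 69 with DESeq2. The counts higher and lower were 273 and 18 with no filter on low counts, 1122 and 87 with the 2 stages alone, and 1218 and 94 with the P2 libraries left out. They were 942 and 108 at a mean of at least 2 CPM, 313 and 8 at 5 CPM, 338 and 22 at 3 kb, and 1190 and 61 with windows not joined, settings that change how many regions there are.

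For P2 over E12.5, where leaving out P2 replicate 1 turned the majority to lower, they were 870 and 201 with column totals, 346 and 48 with no filter, and 274 and 49 with the 2 stages alone, and 362 were lower scaled to the summed regions. They were 991 and 224 at 2 CPM, 260 and 25 at 5 CPM, 339 and 64 at 3 kb, and 1160 and 214 not joined. For the slope over stages, 301 were lower scaled to the summed regions and 48 with E10 in the fit, and 255 were higher with no filter and 929 with P2 left out. The slope gave 713 and 256 at 2 CPM, 185 and 28 at 5 CPM, 255 and 79 at 3 kb, and 833 and 237 not joined. The count called in at least 1 step was 908 with column totals, 907 scaled to the summed regions, 284 with no filter, 997 at 2 CPM, 279 at 5 CPM, 347 at 3 kb and 1235 not joined. RNA at P2 over E14 had 2 lower with no filter, and RNA at E18 had 3 higher and 14 lower with a pseudocount of 0.1.

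Leaving out 1 library at a time gave 186 to 1218 higher and 6 to 94 lower for P0 over E12.5, 247 to 1287 and 50 to 446 for P2 over E12.5, 268 to 949 and 98 to 146 for the slope, and 199 to 1615 for at least 1 step. Relative to the own start it gave 344 to 404 higher and 133 to 147 lower. For RNA it gave 5 to 69 higher and 0 to 25 lower at P2 over E14, and 0 higher and 1 lower at E18.

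Replicate numbers showed no clear pairing of the ATAC-seq samples: same-numbered deviations correlated between -0.13 and 0.15 over 15 pairs of stages. Of these pairs, 2 were above the limit of 0.1. With the replicate number as a block, the counts higher and lower were 580 and 39 for P0 over E12.5, 554 and 109 for P2 over E12.5, 367 and 125 for the slope, and 490 and 199 relative to the own start, and 616 were called in at least 1 step. The block gave 18 and 1 for RNA at P2 over E14, and 4 and 15 for RNA at E18.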
